A study of Mus musculus with 6 samples.

Results

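The genes described here are 10 members of the BCL2 family among the 16583 genes measured in MC38 cells, a mouse colorectal cancer line. They were chosen by gene symbol and grouped by role into 4 survival genes (Bcl2, Bcl2l1, Bcl2l2 and Mcl1), 2 effector genes (Bax and Bak1) and 4 BH3-only genes (Bcl2l11, Bid, Bad and Bmf). All 10 had a row in the table and passed the filter on low counts. RNA was sequenced from 3 control samples (KOCtrl) and 3 samples with SRC-1, the coactivator encoded by Ncoa1, knocked out (KOSRC-1), and the study asked how SRC-1 raises PD-L1. All 6 samples, controls included, had been given interferon gamma (100 ng/mL, 24 h), so the controls are also stimulated cells. The labels do not say how the knockout was made, whether it is 1 clone or a pool, or whether replicates were separate cultures, so p-values measure the spread between these samples only. The titles of all 3 knockout samples name SRC-1, whereas the genotype field of replicates 2 and 3 carries the names KOSRC-2 and KOSRC-3, and the titles were followed.

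Members of the BCL2 family decide whether the outer membrane of the mitochondrion stays intact. BAX and BAK, the effectors, form pores through which cytochrome c leaves to activate caspases. Survival proteins hold the effectors and the BH3-only proteins in check, and BH3-only proteins carry stress signals by binding survival proteins or by activating the effectors directly. Many members are also controlled after transcription, by splicing, phosphorylation, cleavage or protein turnover, which gene-level RNA values do not show.

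Total expected counts ran from 16329459 to 17207625 per library. Knockout 2 stood apart from knockouts 1 and 3 (Pearson r of log2 CPM across genes 0.978 and 0.981, against 0.996 between knockouts 1 and 3 and 0.994 to 0.995 among controls), and the difference went with transcript length. Relative to the mean of knockouts 1 and 3, its log2 level had a median difference of 0.48 over 1269 genes under 1 kb and of -0.37 over 3108 genes of 4 kb or more. Members and named partners whose value or call turns on it are therefore given without it as well. Ncoa1 averaged 18.2 ± 0.212 CPM (counts scaled to library size) across controls and 14.3 ± 3.66 across knockouts (SD, n = 3 each; edgeR adjusted p = 0.179), so its mRNA does not check the labels, and "knockout" refers to the label. Cd274, which encodes PD-L1, fell 2.41-fold (edgeR adjusted p = 9.86e-05). The epithelial markers expected of a colorectal line were near 0, with 7 of 8 in the table at a summed 0.91 to 1.21 TPM in controls and 0.68 to 0.96 TPM in knockouts (TPM is a level per transcript length) and Epcam and Cdh1 at 0.04 TPM or less, whereas 5 of 5 mesenchymal markers summed to 2542 to 2707 TPM in controls and 3105 to 3721 TPM in knockouts. Fibroblast markers (7 of 7) summed to 615 to 689 against 556.5 to 911 TPM, mostly from Col3a1 and Dcn. Col1a1 and Col1a2 were at 0.09 TPM or less in every library, and Lum and Pdgfrb at 3.02 TPM or less. Leukocyte markers (6 of 7) summed to 1.31 to 2.01 against 0.49 to 0.74 TPM, and endothelial markers (3 of 4) to 0.28 TPM at most. Single markers moved in opposite directions within these sums, with Col3a1 (log2 0.999) and Fn1 (0.71) higher and Dcn (-1.90), Pdgfrb (-3.08), Lum (-4.57) and Cdh2 (-4.66) lower (edgeR adjusted p 0.0169 or less for each). These 6, and Col1a1 and Col1a2, were named after their values were seen. The part of these differences in the results below was not tested. As in any bulk sample, fewer cells that express a gene and less RNA per cell cannot be told apart.

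Of the 10 members, 3 rose and 2 fell in the knockout, and 5 were not called. Bmf and Bcl2l11, 2 BH3-only genes with low levels in the controls, rose 2.70-fold and 1.97-fold. Bak1 rose 1.32-fold, while Bcl2 and Bid fell 1.34-fold and 1.30-fold. Each comparison used edgeR's quasi-likelihood test with a gene called when its p, adjusted over all 11656 genes tested, was under 0.05. By that rule 35.7% of all tested genes were called, 17.1% higher and 18.5% lower, so 5 of 10 is a share not far from the background. The median log2 change was 0.08 over the members and 0.02 over all tested genes. The 3 knockout values lay wholly above or below the 3 control values in 7 members, against 51.4% of tested genes. With length trends removed it was also 7 members, with Bad in the place of Mcl1, against 58.3%.

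Other ways of processing gave 3 to 7 member calls, each to be read against its own share of all tested genes. There were 5 under RLE scaling (35.8% of tested genes called), with no filter on low counts (24.8%) and in DESeq2 (32.6%), and 4 under upper-quartile scaling (34.7%). There were 3 with a mean of at least 10 CPM (35.4%) and in limma on log2(TPM + 1) (27.5%), log2(TPM + 0.1) (27.3%) or log2(FPKM + 1) (35.0%). Removing length trends gave 6 (48.1%), and removing length and GC trends gave 7 (53.8%). Leaving out control 1, 2 or 3 gave 4 (21.9%), 3 (20.4%) and 3 (20.4%), and leaving out knockout 1, 2 or 3 gave 4 (27.0%), 7 (69.6%) and 3 (24.2%).

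**Figure D1:**
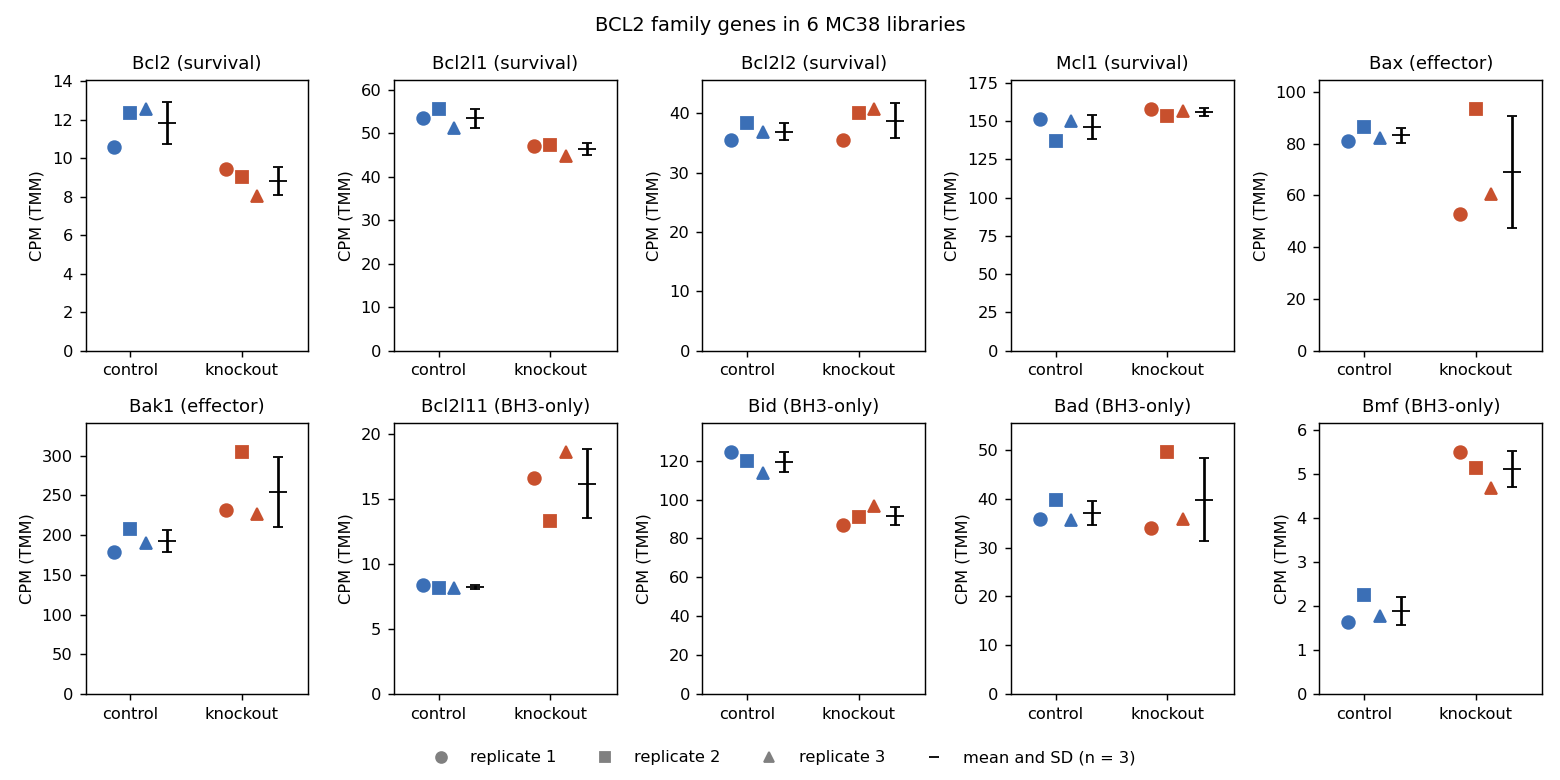
CPM with TMM scaling (vertical axes, each from 0) of the 10 BCL2 family genes in 3 control and 3 knockout libraries; symbols mark the replicate, and the black bar gives mean and SD. Bmf and Bcl2l11 were higher in every knockout library than in any control, Bid and Bcl2 were lower, and knockout 2 (squares) was above the other knockouts for Bax (93.5 CPM), Bak1 (305 CPM) and Bad (49.6 CPM).

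Members differed widely in level. On the TPM scale, which is per length, Bax led in the controls at 182 ± 3.29 TPM, followed by Bak1 (148 ± 8.53), Bid (97.5 ± 4.31), Bad (66.5 ± 4.08), Mcl1 (60.7 ± 4.40), Bcl2l1 (31.8 ± 1.07) and Bcl2l2 (15.8 ± 1.25). Bcl2l11 at 2.55 ± 0.0173 TPM and Bcl2 at 2.49 ± 0.281 TPM overlapped, and Bmf was last at 0.590 ± 0.0964 TPM (SD, n = 3). No other neighbours in this order overlapped among the controls. In the knockouts Bak1, at 201 ± 6.22 TPM, lay above Bax at 154 ± 24.4, and Bcl2l11, at 5.09 ± 1.47, lay above Bcl2 at 1.92 ± 0.320. Bid, Bad and Mcl1 overlapped with their neighbours there, as did Bcl2 with Bmf, which reached 1.64 ± 0.273 TPM.

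**Figure D2:**
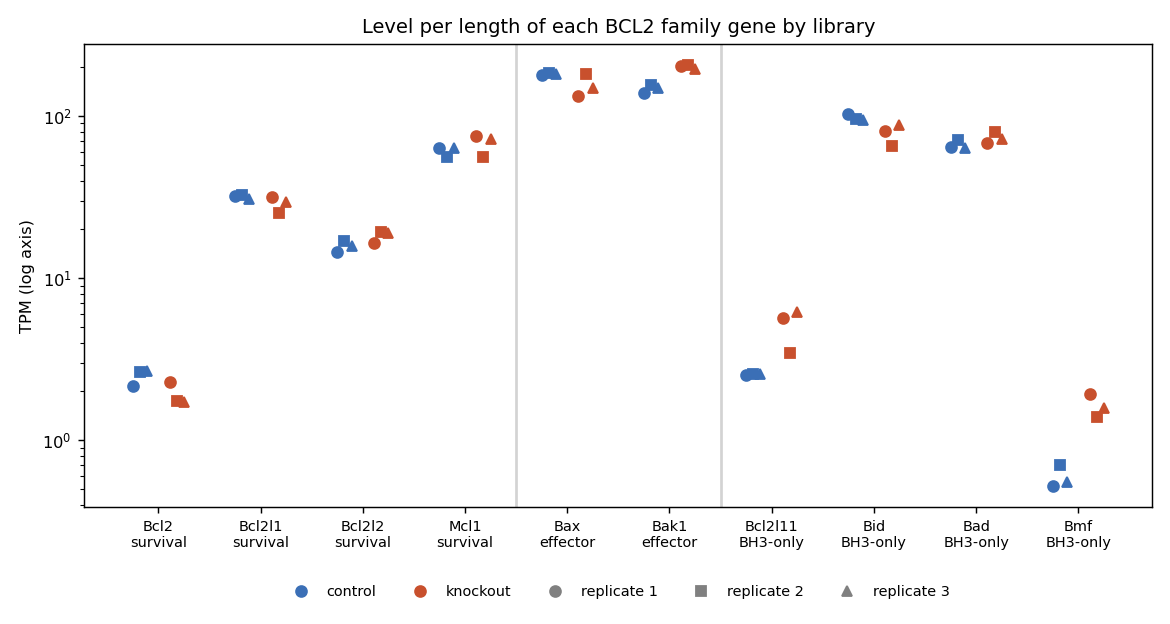
TPM on a log axis for each gene, by role, with control libraries in blue, knockout libraries in orange and symbols for the replicate. Effector genes lie above 130 TPM in every library, and Bcl2, Bcl2l11 and Bmf lie at 6.20 TPM or lower.

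The survival genes gave 1 call of 4. Bcl2 encodes the founding member, which guards the mitochondrion and the endoplasmic reticulum (gene 12043, chromosome 1, 106538176 to 106714290 in GRCm38.p6). Controls 1, 2 and 3 held 10.6, 12.4 and 12.6 CPM, and knockouts 1, 2 and 3 held 9.45, 9.02 and 8.03 CPM. All knockouts lay below all controls, and Bcl2 fell from 11.9 ± 1.08 to 8.83 ± 0.730 CPM (log2 fold change -0.42, SE 0.118, edgeR adjusted p = 0.0281). The call was lost without control 2, control 3 or knockout 3, at log2 changes of -0.39, -0.38 and -0.36 (adjusted p = 0.108, 0.114 and 0.101). It was also lost in limma on log2(FPKM + 1) (0.0837), log2(TPM + 1) (0.177) and log2(TPM + 0.1) (0.186), and on the TPM scale knockout 1 (2.29) lay above control 1 (2.17). Exons of Bcl2 share 558 bases with an antisense gene, D630008O14Rik, that was not analysed here.

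Bcl2l1 encodes BCL-XL and, by splicing, the shorter BCL-XS, which these gene values do not separate (gene 12048, chromosome 2, 152758732 to 152833803). Control libraries held 53.4, 55.6 and 51.2 CPM and knockout libraries 47.0, 47.2 and 44.8 CPM, again with no overlap. The difference was -0.21 on the log2 scale (95% interval -0.38 to -0.03) and was not called (edgeR adjusted p = 0.0705). Without knockout 2 it was called at a similar size (-0.22, adjusted p = 0.00222), when 69.6% of all tested genes were called.

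Mcl1, whose protein is short-lived and is the family's most rapidly adjusted survival factor, was the most abundant survival gene (gene 17210, chromosome 3, 95656944 to 95663179). It gave 151, 137 and 149.7 CPM in the controls and 158, 153 and 157 CPM in the knockouts. The knockout values lay just above the control values, and the log2 difference of 0.09 (95% interval -0.07 to 0.26) was not called (edgeR adjusted p = 0.334). With the length trend removed the Mcl1 groups overlapped, at 152.4, 139.8 and 150.5 CPM against 152.1, 157.4 and 152.1 CPM. Bcl2l2, which encodes BCL-W (gene 12050, chromosome 14, 54883366 to 54890858), overlapped between groups, at 35.6, 38.4 and 36.9 CPM against 35.5, 40.2 and 40.8 CPM. Its log2 difference was 0.07 (95% interval -0.14 to 0.28, edgeR adjusted p = 0.564). Exons of Bcl2l2 share 594 bases with the gene model Gm20521 on the same strand in GENCODE M21. Gm20521 is not among the genes measured, so whether the authors' counting divided reads there cannot be told.

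Of the 2 effector genes, Bak1 was called and Bax was not. Bak1 encodes BAK, which sits in the outer membrane of resting mitochondria (gene 12018, chromosome 17, 27019812 to 27028627). Its values were 179, 208 and 191 CPM in the controls and 231, 305 and 227 CPM in the knockouts, every knockout above every control. Bak1 rose from 192.5 ± 14.2 to 254 ± 43.8 CPM (log2 fold change 0.40, SE 0.129, edgeR adjusted p = 0.0476), close to the threshold. Without knockout 2 the rise was smaller, 0.25, with an adjusted p of 0.000111, when 69.6% of all tested genes were called. The rise was 0.35 to 0.48 without any other single library, with adjusted p from 0.0503 to 0.167. It missed the threshold under upper-quartile scaling (0.0631) and with a mean of at least 10 CPM (0.0553).

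Bax encodes BAX, which moves from the cytosol to the mitochondrion on activation and is a known p53 target (gene 12028, chromosome 7, 45461695 to 45466903). Control libraries held 80.9, 86.5 and 82.2 CPM, and knockouts 1, 2 and 3 held 52.9, 93.5 and 60.7 CPM. Knockouts 1 and 3 were below every control and knockout 2 was above them all. With all libraries the log2 difference was -0.27 (95% interval -0.74 to 0.20, edgeR adjusted p = 0.328). Leaving knockout 2 out gave -0.55 (adjusted p = 8.46e-09), when 69.6% of all tested genes were called. Exons of Bax share 192 of 1576 bases with the gene model Gm45808 on the same strand, which is not among the genes measured. Bax also has the shortest transcript of the 10, 0.611 kb by the deposited counts and FPKM, and knockout 2 was high for short transcripts in general. With each library's trend in transcript length removed, Bax had control values of 78.1, 81.5 and 81.2 CPM and knockout values of 62.3, 78.6 and 67.9 CPM (log2 -0.20, adjusted p = 0.0895). With length and GC trends removed together, Bax was called lower (-0.31, adjusted p = 0.00134). With the length trend alone removed, Bak1 went from 187 ± 12.9 to 259.6 ± 26.55 CPM (0.47, adjusted p = 0.00255). With both trends removed, Bak1 stood at 0.43 (adjusted p = 0.000195).

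**Figure D3:**
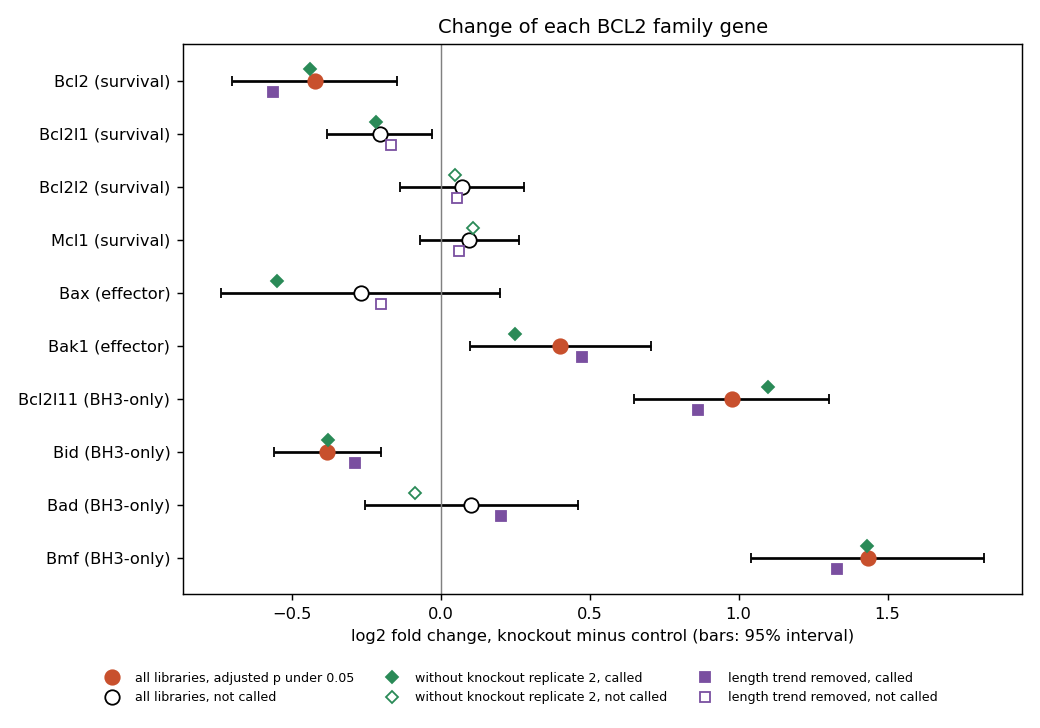
Log2 fold change, knockout minus control, with its 95% interval from edgeR on all 6 libraries (circles), beside the values without knockout 2 (diamonds) and with the length trend removed (squares); filled symbols have an adjusted p under 0.05. Bmf, Bcl2l11, Bak1, Bid and Bcl2 are filled in all 3 fits, and Bax lies at -0.27 with all libraries and -0.55 without knockout 2.

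**Figure D4:**
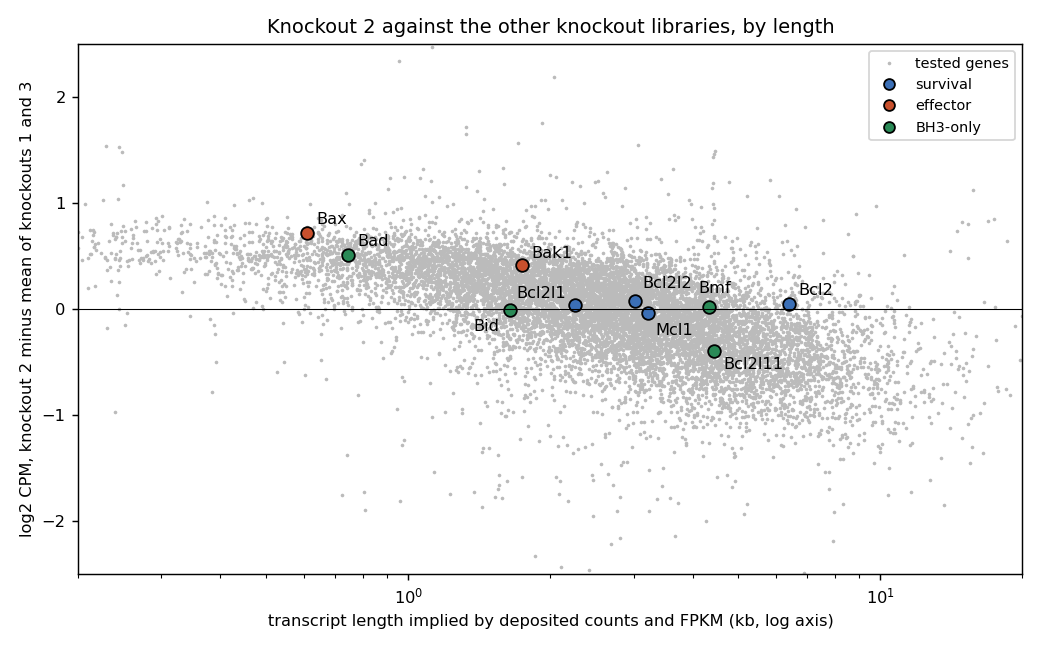
Log2 CPM in knockout 2 minus the mean of knockouts 1 and 3 (vertical axis) against transcript length in kb on a log axis, for tested genes (grey, 81 beyond the axes) and the 10 members (coloured by role). Short genes lie higher in knockout 2, with Bax at 0.72, Bad at 0.51 and Bak1 at 0.41, and Bcl2l11 lies at -0.40.

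The BH3-only genes held the largest fold changes of the 10. Bmf encodes a protein that is held by motor complexes of the cytoskeleton through a dynein light chain and is released on damage or detachment (gene 171543, chromosome 2, 118528757 to 118549686). It had 28, 38 and 30 counts in the controls and 92, 85 and 80 in the knockouts, or 1.63, 2.25 and 1.78 CPM against 5.50, 5.15 and 4.69 CPM. The groups were well apart. Bmf rose from 1.89 ± 0.322 to 5.11 ± 0.409 CPM (log2 fold change 1.43, SE 0.167, 95% interval 1.04 to 1.83, edgeR adjusted p = 0.000853). Of all tested genes, 3.69% had a larger absolute change. It was called in all 16 alternative fits in which it was measured, and its level stayed the lowest of the 10.

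Bcl2l11 encodes BIM, which binds every survival protein and can activate BAX and BAK directly, in isoforms that gene values do not separate (gene 12125, chromosome 2, 128126038 to 128162547). It had 8.40, 8.17 and 8.13 CPM in the controls and 16.6, 13.3 and 18.6 CPM in the knockouts. Knockout 2 was the lowest knockout but still above each control. Bcl2l11 rose from 8.23 ± 0.142 to 16.2 ± 2.68 CPM (log2 fold change 0.98, SE 0.139, 95% interval 0.65 to 1.30, edgeR adjusted p = 0.00202), and 7.93% of tested genes had a larger absolute change. It was called in all 18 alternative fits. With the length trend removed its values were 8.64, 8.59 and 8.34 CPM against 14.9, 14.5 and 17.1 CPM, so that knockout 2 lay close to knockout 1.

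The 250 bases before the outermost RefSeq start of each of these risen genes are shown because both genes rose in all 3 knockouts. Capitals mark matches on either strand to 1 of 3 motifs. The FOXO motif was searched as GTAAACA. The CCAAT box was searched by the letters of its name. The GC box was searched as GGGCGG. The sequences are from RefSeq on GRCm38.p6, printed 5′ to 3′ on the gene's strand. Bcl2l11 is chr2:128125788-128126037 on the plus strand and Bmf is chr2:118549687-118549936 on the minus strand.
Bcl2l11: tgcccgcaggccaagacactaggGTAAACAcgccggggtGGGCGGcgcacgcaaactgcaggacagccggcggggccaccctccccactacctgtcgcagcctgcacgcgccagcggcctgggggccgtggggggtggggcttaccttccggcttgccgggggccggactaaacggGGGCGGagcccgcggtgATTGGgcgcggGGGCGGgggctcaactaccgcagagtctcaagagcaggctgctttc
Bmf: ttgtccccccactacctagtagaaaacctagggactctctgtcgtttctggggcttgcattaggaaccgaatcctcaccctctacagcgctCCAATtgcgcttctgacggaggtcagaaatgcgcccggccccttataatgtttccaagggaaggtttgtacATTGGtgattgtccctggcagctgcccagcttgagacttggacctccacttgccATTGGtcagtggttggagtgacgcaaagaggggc
The Bcl2l11 window was 72.0% G or C with 24 CpG, and that of Bmf was 54.0% with 8 CpG, against medians of 52.4% and 6 over 32851 windows of the same length. The FOXO letters, which begin 227 bases before the Bcl2l11 start, were in 3.17% of all windows and in no other window of the 10 members, which have 16 in all. CCAAT was in 33.8% and the GC box in 32.7% of all windows. Neither window held an E-box (CACGTG, 6.02% of all windows), the AP-1 letters TGANTCA (6.75%) or the STAT-type letters TTCNNNGAA (7.02%), and no motif listed here overlapped another in these windows. These are letter matches, and no binding was measured.

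Bid encodes a protein that caspase 8 cleaves to link death receptors to mitochondria (gene 12122, chromosome 6, 120893119 to 120917062). On the TPM scale it was the highest BH3-only gene in every library except knockout 2, where Bad (79.3 TPM) lay above it (65.7 TPM). Its values were 124.5, 119.8 and 114 CPM in the controls and 87.0, 91.3 and 96.6 CPM in the knockouts. No knockout reached the lowest control. Bid fell from 119.4 ± 5.32 to 91.6 ± 4.78 CPM (log2 fold change -0.38, SE 0.0768, edgeR adjusted p = 0.00797), and it missed the threshold in limma on TPM (-0.32, adjusted p = 0.0766). Its exons share 628 bases with Bcl2l13 on the opposite strand, and since the kit is not stated to mark strand, reads of the 2 genes cannot be told apart there. Bcl2l13, a mitochondrial BCL2-related gene, also fell, from 79.4 ± 2.18 to 60.9 ± 2.38 CPM (log2 -0.38, adjusted p = 0.00623). The median tested gene of chromosome 6 was at -0.16, and the part of either in the Bid result was not tested.

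Bad encodes a protein that survival kinases keep inactive by phosphorylation (gene 12015, chromosome 19, 6941861 to 6951905). It gave 35.8, 39.8 and 35.6 CPM in the controls and 34.0, 49.6 and 35.8 CPM in the knockouts, with only knockout 2 above the control range. The difference of 0.10 (95% interval -0.26 to 0.46) was not called (edgeR adjusted p = 0.629), and its sign turned without knockout 2 (-0.09, adjusted p = 0.267). With the length trend removed, all knockouts (39.9, 42.6 and 40.1 CPM) lay above all controls (34.4, 37.5 and 34.9 CPM), and the change of 0.20 was called (adjusted p = 0.0393), when 48.1% of all tested genes were. Bad has a short transcript (0.747 kb) and shares 524 exonic bases with Gpr137 on the opposite strand, which stood at 0.26 and was not called (adjusted p = 0.227). For Bak1, the opposite-strand neighbour Ggnbp1 (614 shared bases) had at most 23 counts in any library, against 3076 or more for Bak1.

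The summed level of each role overlapped between groups, while several ratios of single genes did not. Summed TPM of the survival genes was 112, 108 and 112 in the controls and 125, 102 and 123 in the knockouts. Here knockouts 1 and 3 lay above every control, and knockout 2 lay below them all. TPM is scaled by each library's summed FPKM, which was 670321, 813814 and 682320 in knockouts 1, 2 and 3. In the controls that sum was 733077 to 756673. The part of this scaling in the summed levels was not tested. For the effectors the sums were 317, 341 and 331 against 336, 387 and 342, and for the BH3-only genes 170.1, 170.0 and 161 against 157, 149.9 and 168. Within the effector sum, Bak1 made up 43.7%, 45.7% and 44.9% in the controls and 60.4%, 53.3% and 56.7% in the knockouts, with no overlap. Within the BH3-only sum, Bid and Bad made up most of the TPM in every library, and the share of Bcl2l11 went from 1.53% ± 0.0527 to 3.20% ± 0.789.

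The TPM ratio of Bcl2l11 to Bcl2 was 1.17, 0.973 and 0.955 in the controls and 2.47, 1.97 and 3.58 in the knockouts. That of Bmf to Bcl2 was 0.240, 0.266 and 0.205 against 0.843, 0.799 and 0.919. Both ratios were higher in every knockout, as were those of the 2 genes to Bcl2l1 and to Mcl1. Bcl2l11 over Mcl1, for instance, went from 0.0422 ± 0.00335 to 0.0741 ± 0.0121. Bak1 over Bcl2 went from 59.5 ± 4.25 to 106 ± 15.8 and Bak1 over Bcl2l1 from 4.65 ± 0.286 to 7.06 ± 1.02, both without overlap. Bak1 over Mcl1, at 2.45 ± 0.315 against 3.02 ± 0.573, overlapped. Bax over Bcl2, at 82.3, 70.4 and 68.1 against 58.2, 104 and 85.7, overlapped too, as did Bax over Bcl2l1 and over Mcl1. These ratios follow from the levels above and were not tested.

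Genes with the most similar values over the 6 libraries were found by Euclidean distance between centred log2 CPM, among 8767 candidates. Nearest to Bmf were Marcks (distance 0.32), Sdc3 (0.34) and Plec (0.36), all of them higher in the knockouts by 1.37 to 1.66 on the log2 scale. Kctd17 (0.07), Lmf2 (0.09) and Tagln2 (0.09) lay nearest to Bak1 and, like it, had their highest value in knockout 2. Emp2 (0.11), Sms (0.12) and Itpkc (0.15) lay nearest to Bcl2. All these distances come from the same 6 libraries.

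Partner genes of apoptosis were described from 6 lists. Of 59 tested partners, 13 rose, 10 fell and 36 were not called, a called share near the 35.7% of all tested genes, with a median log2 change of 0.12. The balance of directions depended on the libraries and the length correction. There were 5 higher and 8 lower without control 1 (21.9% of all tested genes called) and 3 and 7 without control 2 (20.4%). There were 4 and 7 without control 3 (20.4%) or without knockout 3 (24.2%). Without knockout 2 there were 28 and 19 (69.6%), and with the length trend removed 24 and 12 (48.1%). Among 8 tested BCL2-related genes outside the 10, 4 rose, 1 (Bcl2l13) fell and 3 were not called (median 0.32). Bnip3, a mitophagy receptor, rose from 74.2 ± 3.12 to 172 ± 11.9 CPM (log2 1.21, edgeR adjusted p = 9.2e-05). Its relative Bnip3l rose 1.39-fold and Bok, an effector-like member, rose 1.51-fold. A further 4 genes of that list, Bcl2l10, Pmaip1, Bik and Bcl2l15, were below the filter with at most 16 counts in any library, and they are named because they were low.

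In the list of apoptosome and caspase genes, 4 of 14 rose, 2 fell and 8 were not called (median 0.16). Casp6, an executioner caspase, rose from 16.02 ± 2.12 to 34.1 ± 1.95 CPM (log2 1.09, edgeR adjusted p = 0.000642). Casp9, the initiator that binds APAF1, rose 1.32-fold. Diablo, whose product leaves mitochondria and blocks inhibitors of apoptosis, fell from 62.1 ± 1.80 to 41.7 ± 4.27 CPM (log2 -0.57, adjusted p = 0.00347).

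Of 6 inhibitors of apoptosis, 1 rose, 2 fell and 3 were not called (median 0.06). Cflar encodes FLIP, which blocks caspase 8, and fell from 60.7 ± 2.35 to 37.3 ± 4.05 CPM (log2 -0.70, edgeR adjusted p = 0.00186). Birc3 (cIAP2) fell 1.40-fold. Birc6, a very large inhibitor with a transcript of 15.46 kb, was called higher (log2 1.08, adjusted p = 0.0479). Its values were 225 and 209 CPM in knockouts 1 and 3, 79.3 in knockout 2 and 75.1 to 84.0 in the controls. Knockout 2 was low for long transcripts in general, with a median log2 difference of -0.37 at 4 kb or more. The Birc6 call held in 9 of 18 alternatives (highest adjusted p 0.175). Without knockout 2 its log2 change was 1.43 (adjusted p = 3.73e-18), when 69.6% of all tested genes were called.

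Of 6 partners of BAX and BAK at the outer membrane, Vdac1, a channel protein, rose 1.18-fold and 5 were not called (median -0.12). The Vdac1 call was lost without any 1 library other than knockout 2 (adjusted p from 0.0734 to 0.142). Of 12 genes acting on MCL1 or BIM protein, 1 rose and 11 were not called (median 0.13).

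Of 13 tested transcription factors known to act on BCL2 family genes, 2 rose, 5 fell and 6 were not called (median 0.08). Myc fell from 628 ± 37.3 to 233 ± 3.32 CPM (log2 -1.43, edgeR adjusted p = 4.4e-05). Ddit3, encoding the stress factor CHOP, fell 3.37-fold and the AP-1 gene Jun fell 1.69-fold, while Stat5a rose 1.32-fold. FOXO genes were looked at after their values were seen, because of the motif in the Bcl2l11 window. Foxo3 averaged 100.8 ± 3.30 CPM across controls and 138 ± 28.8 CPM across knockouts (log2 0.45, adjusted p = 0.0529). Knockouts 1 and 3 held 154 and 156 CPM of Foxo3 and knockout 2 held 105, against 97.6 to 104 in the controls. Without knockout 2 Foxo3 was called (0.62, adjusted p = 1.03e-11), when 69.6% of all tested genes were called. Foxo3 was called in 8 of 18 alternatives. Foxo1 fell from 26.1 ± 0.923 to 21.1 ± 1.89 CPM (adjusted p = 0.0402), a call that held in 9 of 18 alternatives. Any part of either FOXO gene in the Bcl2l11 rise was not tested.

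**Figure D5:**
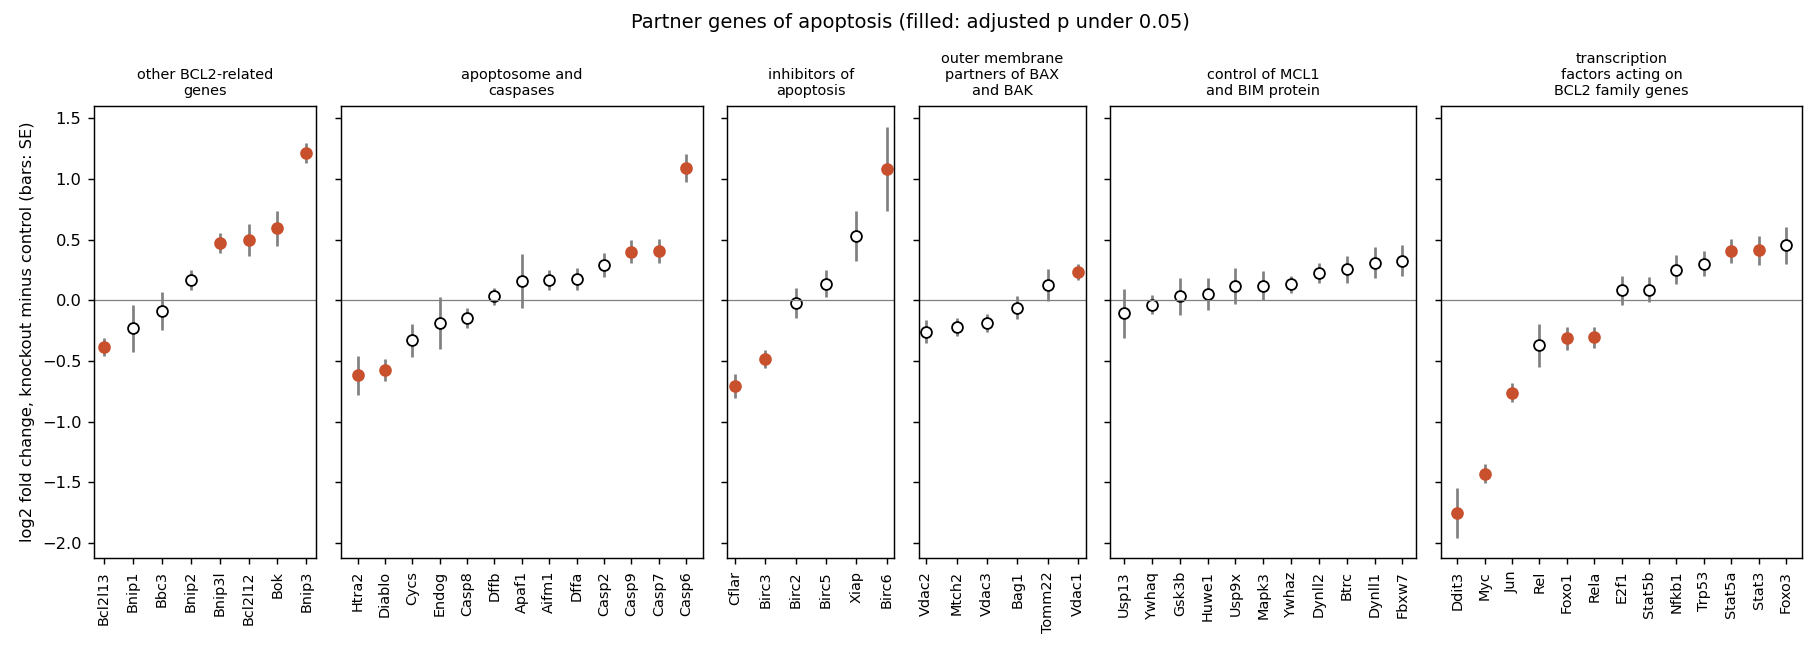
Log2 fold change, knockout minus control, with its SE for the tested partner genes named on the horizontal axis, in 6 lists; filled circles have an adjusted p under 0.05. Calls go both ways in the BCL2-related, caspase, inhibitor and transcription factor lists, from Ddit3 at -1.75 to Bnip3 at 1.21.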

How the data were processed

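Gene-level values of 6 libraries (3 control, 3 knockout) were used. Expected counts, FPKM and TPM are deposited values, per the file headers; CPM was computed here from the deposited counts. Of the count values 88.9% are whole within 0.001. HISAT2, StringTie and SAMtools (no versions) and the build GRCm38.p6 come from the submitters' processing notes, which do not say which program counted reads. The 6 columns of group averages were not used.

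Counts were rounded and filtered with filterByExpr (minimum count 10, minimum total 15, smallest group 3), and tested with edgeR 4.0.16 (R 4.3.3; TMM, robust quasi-likelihood, two-sided, Benjamini-Hochberg over 11656 genes). SE belongs to log2 fold changes. Transcript length was computed from the deposited counts and FPKM, and length trends were removed as lowess offsets (span 0.3). Members and lists were chosen with earlier results of these data known. All members are named. From each partner list up to 4 called genes with the smallest adjusted p are named, except genes that are not reported here. Alternatives were other scalings and filters, DESeq2 1.42.0, limma 3.58.1 on log2(TPM + 1), log2(TPM + 0.1) and log2(FPKM + 1), a replicate block, length and GC trends, and leaving out each library. The fits were tested on simulated data.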

Additional observations from a re-analysis of the deposited data

How the results depend on the processing

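Bcl2l11 and Bmf were called in every alternative in which they were measured, Bid in 16 of 18, Bcl2 in 12, Bak1 in 11, Bax in 3, and Bcl2l1 and Bad in 2 each. Bcl2l2 and Mcl1 were called in none of the 18 (lowest adjusted p 0.235 and 0.0536). Among the members, the sign turned for Bad alone (-0.0861 without knockout 2, against up to 0.203 with another library left out). The 5 member calls became 3 with a mean of at least 10 CPM and in limma on log2(TPM + 1), log2(TPM + 0.1) and log2(FPKM + 1), and 3 to 7 when 1 library was left out. Bmf was below the filter in the first and last of these 4. The 4157 calls over all genes became 6276 with length and GC trends removed, an alternative chosen after seeing the data, and 2406 to 8208 with 1 library left out, the highest without knockout 2. The 23 partner calls became 36 with the length trend removed (48.1% of all tested genes called) and 38 with a replicate block as well (51.2%). They became 40 with length and GC trends removed (53.8%), and 10 to 47 with 1 library left out (20.4% to 69.6%). Summed levels and ratios moved by less than the spread between replicates in the alternatives run for them. A ratio within a library cannot change with library scaling, so its stability there says nothing.

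Same-numbered libraries deviated together only weakly (r = 0.161, 0.261 and 0.0401), and controls 1 and 3 correlated best with another number. Those margins were small, at 0.186 for control 1 with knockout 3 and 0.0448 for control 3 with knockout 1. Since knockouts 1 and 3 were so alike, this check cannot decide whether the numbers pair the samples. The replicate block gave 5 member calls, 4337 over all genes (37.2%) and 25 partners. With the length trend removed as well, the replicate block gave 7 member calls, Bax among them (-0.21, adjusted p = 0.0431). Bmf, with 28 to 92 counts, is the least deeply counted member. The cause of the calls gained or lost was not tested.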
